A study of Mus musculus with 32 samples.

Results

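The 9 genes described here encode transcription factors that give striatal spiny projection neurons their identity: Foxp1, Foxp2, Bcl11b, Rarb, Rxrg, Meis2, Six3, Zfhx3 and Ikzf1. They were picked by name, not by a threshold, from the 54532 genes of the count table, with earlier results of these data known. All 9 were among the 16610 genes with enough counts to test. Spiny projection neurons are the GABAergic output cells of the striatum and make up most of its neurons. Forkhead, zinc finger, homeodomain and nuclear receptor proteins, acting together from the embryo onwards, direct these cells towards the direct pathway (dopamine D1 receptor) or the indirect pathway (dopamine D2 receptor) and keep their genes for dopamine and cAMP signalling active in the adult. Loss of mRNAs specific to spiny neurons is a known early feature of Huntington's disease in patients and mouse models.

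Striatal RNA was measured by RNA sequencing after polyA selection in 32 mice, all 6 months old and on a C57BL/6J background, with 8 mice in each of 4 groups: wild-type, Msh3-/-, zQ175 and zQ175:Msh3-/-. zQ175 mice carry an expanded CAG repeat knocked into the endogenous mouse Htt gene, so every cell that uses Htt carries the allele. Msh3-/- mice lack a segment of the mismatch repair gene Msh3 between exons 3 and 8 in all tissues, made by CRISPR/Cas9 editing in a single line, and MSH3 is needed for the somatic expansion of the CAG repeat. The groups came from the same crosses, with 4 males and 4 females in wild-type, Msh3-/- and zQ175 and 5 males and 3 females in zQ175:Msh3-/-. The comparisons asked whether the zQ175 allele altered the level of these factors, and whether loss of Msh3 modified that effect.

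Each mouse had between 12359347 and 25030335 counts in genes. Levels of 1 gene in different mice are given as CPM, which are counts scaled to library size with TMM normalization, and levels of different genes as TPM, which are also scaled by gene length. A gene was called when its adjusted p, by the edgeR quasi-likelihood test with Benjamini-Hochberg adjustment over all 16610 genes, was under 0.05 and its level differed at least 1.2-fold. Msh3, counted over the whole gene, had a mean of 24.5 CPM ± 1.61 (SD, n = 8) in wild-type and 24.4 ± 1.53 in zQ175 mice, and was lower in Msh3-/- (11.8 ± 1.197) and zQ175:Msh3-/- mice (12.9 ± 1.15), in the direction of the labels. The table does not show from which exons the remaining counts came. Htt was lower in zQ175 mice (136 CPM ± 6.54) than in wild-type mice (170.3 ± 11.8). The summed level of 18 genes of spiny neuron signalling, which mark the tissue, was 12084 to 14704 TPM in wild-type mice, and none of the 18 was at 0. The summed level of 8 cortical excitatory neuron markers, genes of a neighbouring tissue, ranged from 43.0 to 250.5 TPM in wild-type, 44.8 to 365 in Msh3-/-, 38.5 to 331 in zQ175 and 117 to 553 in zQ175:Msh3-/- mice. These mice therefore differed in cortical transcripts within every group.

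The zQ175 allele lowered 5 of the 9 factors against wild-type mice: Rxrg, Rarb, Bcl11b, Foxp1 and Meis2. The same 5 were lower in zQ175:Msh3-/- than in Msh3-/- mice, and none of the 9 was called higher in either comparison. Across all genes tested, 11.6% were called in either direction between zQ175 and wild-type mice, and 6.89% were called lower. Between zQ175:Msh3-/- and Msh3-/- mice these shares were 10.6% and 5.96%. Since the 9 were chosen with earlier results of these data known, the shares give a background and do not test the 9 as a group. The median log2 fold change of the 9 factors was -0.40 on the wild-type and -0.31 on the Msh3-/- background, against 0.01 for all genes tested in both. In bulk tissue, fewer spiny neurons and less RNA in each of them cannot be told apart.

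**Figure D1:**
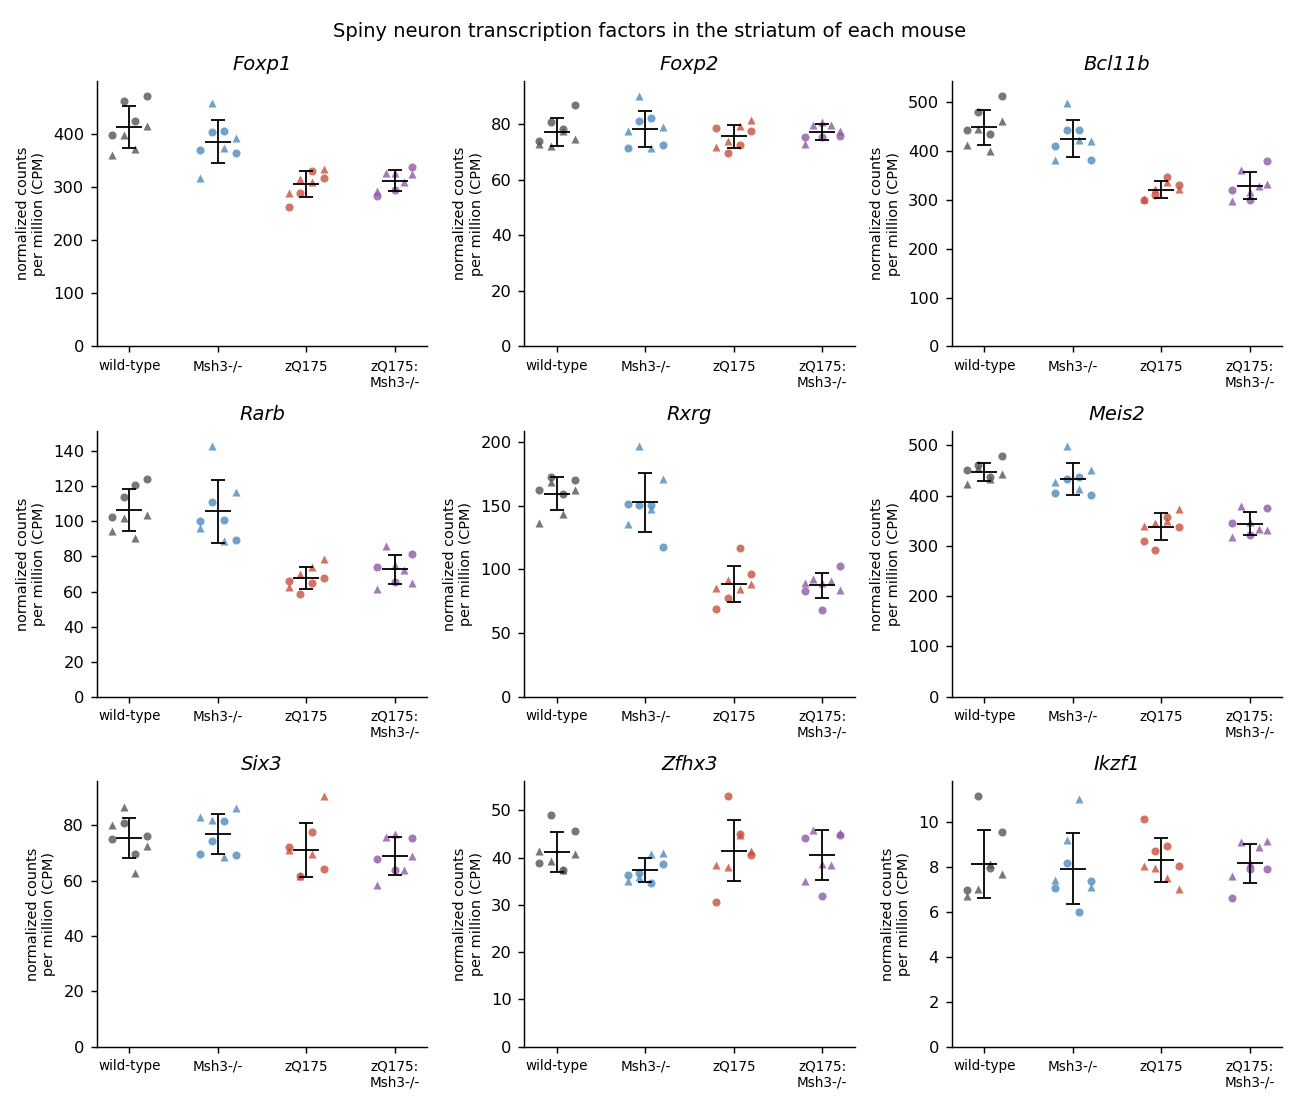
Level of the 9 transcription factors (y axis, CPM from 0) in each of the 32 mice by genotype (x axis), with circles for females, triangles for males and bars for the mean and SD of 8 mice. Foxp1, Bcl11b, Rarb, Rxrg and Meis2 sit lower in both groups with the zQ175 allele, with overlap only for Foxp1 on the Msh3-/- background. The groups overlap for Foxp2, Six3, Zfhx3 and Ikzf1 in both comparisons.

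The retinoid receptors fell furthest. Rxrg encodes the gamma retinoid X receptor, an obligate partner with which retinoic acid receptors bind DNA as heterodimers. Its level was 137 to 173 CPM in wild-type mice (median 162) and 68.8 to 117 in zQ175 mice (median 86.9). Every zQ175 mouse was below every wild-type mouse, and Rxrg fell by 44.2%, a log2 fold change of -0.84 (SE 0.0920, edgeR adjusted p = 2.11e-08). Without Msh3 the range was 118 to 197 CPM (median 151) without and 67.7 to 102 (median 89.3) with the zQ175 allele. These groups did not overlap either, and Rxrg fell by 0.81 on the log2 scale (SE 0.0924, edgeR adjusted p = 6.87e-08).

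Rarb, the beta retinoic acid receptor and the form most restricted to the striatum in the adult brain, had 90.5 to 124 CPM in wild-type mice (median 103) and 58.7 to 78.3 in zQ175 mice (median 66.8). The groups were separate, and Rarb fell by 0.65 on the log2 scale (SE 0.0868, edgeR adjusted p = 8.26e-07). It had 88.9 to 143 CPM in Msh3-/- mice (median 100.5) and 61.4 to 85.9 in zQ175:Msh3-/- mice (median 73.3). The highest zQ175:Msh3-/- mouse was just below the lowest Msh3-/- mouse, and Rarb fell by 31.4% (log2 fold change -0.54, SE 0.0869, edgeR adjusted p = 1.71e-05). Top2b overlaps Rarb on the opposite strand, and the sources used here do not give the strand setting of the counting. Top2b had a median of 1968 counts in a mouse against 1412 for Rarb, and its log2 fold changes were -0.04 (edgeR adjusted p = 0.265) and -0.03 (edgeR adjusted p = 0.462) in the same comparisons.

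Retinoic acid is known to switch on Rarb itself through a response element in its promoter, made of a pair of hexamers, and RefSeq promoter windows of GRCm38.p6 were searched for such elements. A window covers 250 bases before and 50 after a transcription start, and 12 windows matched 8 of the 9 factors, with no entry for Foxp2. The hexamers searched were AGGTCA or AGTTCA or GGGTCA or GGTTCA, in direct repeat on either strand, with 5 bases between them (DR5), which binds RAR with RXR, or with 1 (DR1) or 2 (DR2). A DR5 was present in the Rarb window and in none of the other 11, and in 0.0974% of all 32851 windows. DR1 and DR2 were present in none of the 12 and in 0.222% and 0.268% of all windows. The stretch is shown because it is the only element of this kind among the factors, with the DR5 in capitals, on the minus strand at chr14:16575477-16575566, ending at the base before the start site:
Rarb promoter: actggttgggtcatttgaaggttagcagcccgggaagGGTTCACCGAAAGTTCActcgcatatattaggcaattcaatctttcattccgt
The DR5 lies 53 to 37 bases before the start site, which is an internal start within the annotated Rarb gene (chromosome 14, 16430839 to 16819156). The core letters of a MEIS site, TGACAG, were in a window of Foxp1, Rarb and Six3 and in 19.2% of all windows, and those of a forkhead site, TGTTTAC, in none of the 12 and in 3.65% of all. A match of letters describes the window and does not show binding.

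Bcl11b, a zinc finger protein also called CTIP2 that is required for spiny neurons to mature, had 401 to 513 CPM in wild-type mice (median 445) and 299 to 347 in zQ175 mice (median 323). The groups were separate, and Bcl11b fell by 28.5% (log2 fold change -0.48, SE 0.0532, edgeR adjusted p = 5.24e-09). Its level was 381 to 499 CPM in Msh3-/- mice (median 422) and 298 to 380.0 in zQ175:Msh3-/- mice (median 324). The ranges met without overlap, and Bcl11b fell by 0.37 on the log2 scale (SE 0.0532, edgeR adjusted p = 1.62e-06).

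Meis2 is a homeodomain protein that binds DNA with PBX partners and marks striatal precursors and their descendants. It had 423 to 478 CPM in wild-type mice (median 446) and 292 to 374 in zQ175 mice (median 343), with no overlap. It fell by 0.40 on the log2 scale (SE 0.0460, edgeR adjusted p = 1.19e-08). The range was 401 to 498 CPM in Msh3-/- mice (median 430.0) and 317 to 379 in zQ175:Msh3-/- mice (median 340.0), again with no overlap. There Meis2 fell by 20.6% (log2 fold change -0.33, SE 0.0460, edgeR adjusted p = 7.13e-07), close to the 1.2-fold limit.

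Foxp1 and Foxp2 encode forkhead repressors that can pair with each other, and both are expressed in spiny neurons. Foxp1 had 361 to 472 CPM in wild-type mice (median 407) and 263 to 334 in zQ175 mice (median 312). No mouse of one group reached the other, and Foxp1 fell by 0.43 on the log2 scale (SE 0.0598, edgeR adjusted p = 6.90e-07). The range was 316 to 459 CPM in Msh3-/- mice (median 384) and 284 to 338 in zQ175:Msh3-/- mice (median 317), so the groups overlapped, although all 8 zQ175:Msh3-/- mice were below the Msh3-/- median. Foxp1 fell by 19.1% (log2 fold change -0.31, SE 0.0598, edgeR adjusted p = 0.000189), the smallest change among the called factors. By limma on log2(TPM + 0.1) it was not called, with a log2 fold change of -0.20 (adjusted p = 0.0189) that missed the 1.2-fold limit.

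Foxp2 differed from Foxp1. It had 72.1 to 86.7 CPM in wild-type mice (median 76.0) and 69.6 to 81.3 in zQ175 mice (median 75.6). The groups covered the same levels, with a log2 fold change of -0.03 and a 95% confidence interval from -0.12 to 0.06 (edgeR adjusted p = 0.662). In mice without Msh3, Foxp2 had 71.3 to 90.0 CPM without and 72.7 to 80.8 with the zQ175 allele, and the log2 fold change was -0.02 (interval -0.11 to 0.07, edgeR adjusted p = 0.764).

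The coding sequences of the pair were compared because reads that fit both genes could be counted for either. The longest GENCODE M21 coding sequences have 2118 bases in Foxp1 and 2217 in Foxp2, and no stretch of 50 bases is shared. The longest identical run has 35 bases. The most similar 60 bases are the CAG and CAA codons of a glutamine tract, shown with the differing bases in capitals, from coding base 229 of Foxp1 and 532 of Foxp2:
Foxp1: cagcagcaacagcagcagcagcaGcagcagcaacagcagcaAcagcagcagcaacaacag
Foxp2: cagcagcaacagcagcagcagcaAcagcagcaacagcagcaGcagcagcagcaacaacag

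The ratio of Foxp2 to Foxp1 within a mouse does not depend on scaling between mice. It is formed from the levels of both genes described above, so its tests are not separate evidence. On the count scale, not corrected for length, it was 0.175 to 0.208 in wild-type mice (median 0.184) and 0.219 to 0.300 in zQ175 mice (median 0.244). The groups were separate, and the ratio was higher by 0.40 on the log2 scale (SE 0.0551, exact permutation p = 0.000155, the smallest that arrangements of 8 mice against 8 can give). With 8 tests of ratios, the adjusted p was 0.00124. The ratio was 0.191 to 0.245 in Msh3-/- mice and 0.224 to 0.265 in zQ175:Msh3-/- mice, a difference of 0.28 on the log2 scale (SE 0.0483, exact permutation p = 0.000622, adjusted 0.00249). Between Msh3-/- and wild-type mice the difference was 0.12 (SE 0.0508, exact permutation p = 0.0233, adjusted 0.0466), and it lost significance when any of 12 of the 16 mice was left out, with an adjusted p of up to 0.104. 1 Msh3-/- male stood apart at the top of its group, and without this mouse the difference was 0.08 (exact permutation, adjusted p = 0.0786).

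Rxrg fell further than Rarb on the Msh3-/- background. The ratio of Rxrg to Rarb was 1.32 to 1.66 in Msh3-/- mice and 1.03 to 1.46 in zQ175:Msh3-/- mice, lower by 0.27 on the log2 scale with overlap (SE 0.0679, exact permutation p = 0.00202, adjusted 0.00539). In wild-type mice the ratio was 1.32 to 1.66 and in zQ175 mice 1.04 to 1.80, a log2 difference of -0.21 (SE 0.0955, exact permutation p = 0.0491, adjusted 0.0786). 1 zQ175 female had the highest ratio of all mice. Without this female the log2 difference was -0.27 (exact permutation, adjusted p = 0.00497). Of the 16 omissions of a single mouse, only this 1 changed the outcome, and the adjusted p reached 0.159 among the others. From the TPM table with all mice the log2 difference was -0.27 (exact permutation, adjusted p = 0.0317).

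**Figure D2:**
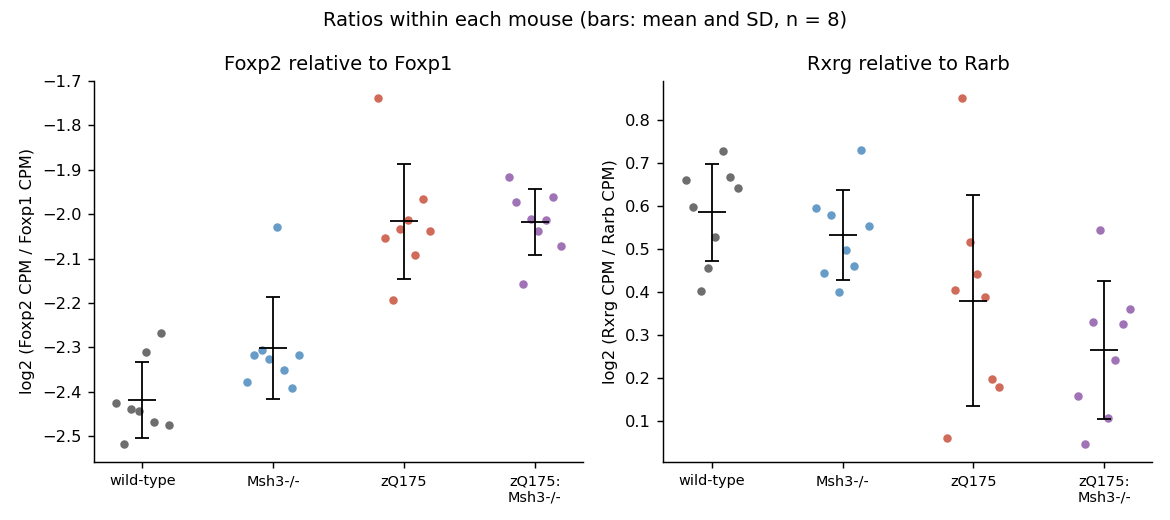
Log2 ratio of Foxp2 to Foxp1 (left, y axis) and of Rxrg to Rarb (right, y axis) within each mouse by genotype (x axis), from CPM, with bars for the mean and SD of 8 mice. The Foxp2 to Foxp1 ratio of every zQ175 mouse is above that of every wild-type mouse.

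Six3, Zfhx3 and Ikzf1 were not called in either comparison. Six3, a homeobox gene needed for spiny neurons of the indirect pathway, had 62.9 to 86.5 CPM in wild-type mice (median 75.5) and 61.6 to 90.4 in zQ175 mice (median 70.3). The groups overlapped, with a log2 fold change of -0.09 (95% confidence interval -0.24 to 0.06, edgeR adjusted p = 0.430). On the Msh3-/- background all 8 mice with the zQ175 allele were below the median of those without, at 58.5 to 77.0 against 68.6 to 86.3 CPM, and the log2 fold change was -0.16 (interval -0.31 to -0.01, edgeR adjusted p = 0.119, exact permutation p = 0.0432 without adjustment). The antisense transcript Six3os1 overlaps Six3 on the opposite strand, with a median of 342.5 counts against 1200.5 for Six3, and had log2 fold changes of -0.09 (edgeR adjusted p = 0.410) and -0.10 (edgeR adjusted p = 0.334).

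Zfhx3, a large zinc finger and homeobox protein of maturing spiny neurons, had 37.4 to 49.0 CPM in wild-type mice (median 39.9) and 30.6 to 52.9 in zQ175 mice (median 41.0). The zQ175 range enclosed the wild-type range, with a log2 fold change of 0.00 (95% confidence interval -0.16 to 0.17, edgeR adjusted p = 0.9746). The non-coding Gm39244, which overlaps Zfhx3 on the opposite strand and was named after its value was seen, rose by 0.37 on the log2 scale (edgeR adjusted p = 0.00508) at a median of 94 counts, against 675 for Zfhx3.

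Ikzf1, or Ikaros, a zinc finger protein of lymphoid cells and of developing enkephalin neurons, was the lowest of the 9, at 6.72 to 11.2 CPM in wild-type mice (median 7.81) and 7.03 to 10.2 in zQ175 mice (median 8.04). It had 87 to 226 counts in a mouse, and the 95% confidence interval of its log2 fold change ran from -0.19 to 0.23 around 0.02 (edgeR adjusted p = 0.910). These data do not exclude a change within this interval. Microglia also belong to the blood lineage. The Pearson r of Ikzf1 with 10 microglial markers, over the 32 mice after the mean of each genotype was subtracted, lay between -0.47 and 0.18 with a median of -0.12, and the part of microglia in the Ikzf1 counts was not tested.

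The factors whose groups did not overlap numbered 5 of 9 for zQ175 against wild-type mice and 4 of 9 on the Msh3-/- background. Of all genes tested, 6.63% and 5.39% did not overlap, a background that does not test factors chosen with earlier results known.

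**Figure D3:**
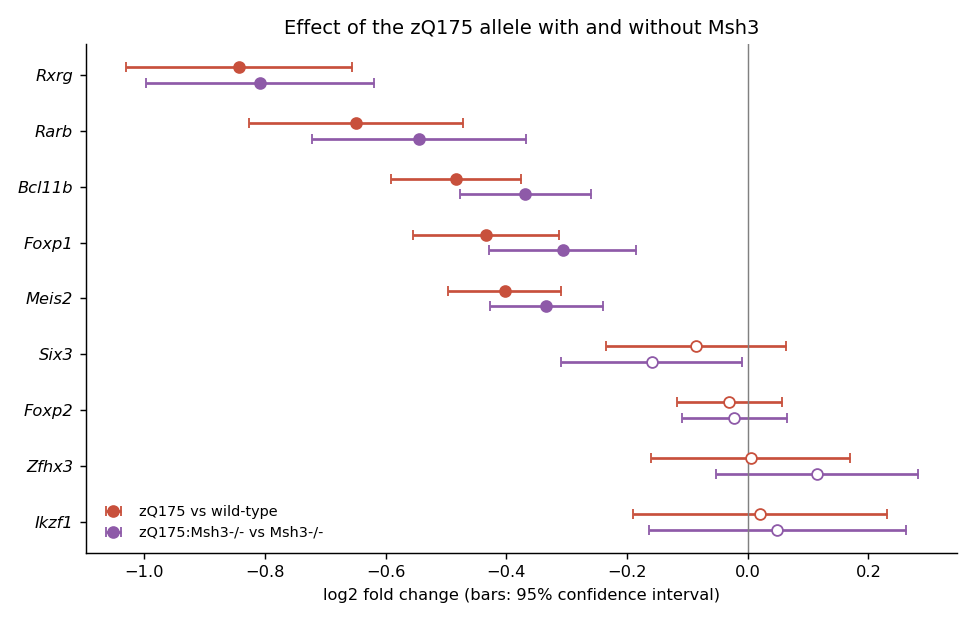
Log2 fold change (x axis) of each factor (y axis) between zQ175 and wild-type mice in red and between zQ175:Msh3-/- and Msh3-/- mice in purple, with 95% confidence intervals as bars. Filled points passed the edgeR test and the 1.2-fold limit. Rxrg and Rarb lie furthest to the left in both comparisons.

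No factor was called for loss of Msh3, by edgeR or by DESeq2, with or without the zQ175 allele, and none had an unadjusted edgeR p under 0.05. Between Msh3-/- and wild-type mice the log2 fold changes ran from -0.14 for Zfhx3 to 0.03 for Six3, with edgeR adjusted p-values of at least 0.926. Zfhx3 had 34.6 to 41.0 CPM in Msh3-/- mice, below the wild-type median in 6 of 8 mice, and an exact permutation p of 0.0336 without adjustment. With the zQ175 allele in both groups, the changes with Msh3 genotype ran from -0.05 for Six3 to 0.10 for Rarb on the log2 scale, with edgeR adjusted p-values of 0.999. In each of these comparisons 0.00602% of all genes, that is 1 gene, was called, and that gene was Msh3.

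Whether the zQ175 effect differed with the Msh3 genotype was tested by the interaction, in which 0% of all genes were called by edgeR, with 737 at an unadjusted p under 0.05 and none of the 9 factors among them. For the 5 factors that fell, the interaction ranged from 0.04 for Rxrg to 0.13 for Foxp1 on the log2 scale. Its sign differed between the sexes for Rarb, Rxrg and Meis2. In males alone it was -0.18, -0.07 and -0.08 in that order, against 0.39, 0.12 and 0.22 in females alone. For Foxp1 and Bcl11b it was positive in both sexes, from 0.02 to 0.21 and from 0.03 to 0.20 over 13 other settings. None of these interactions passed the test. For Foxp1 the interval of the interaction ran from -0.04 to 0.30 (edgeR adjusted p = 0.999), and for Rxrg from -0.23 to 0.30. The data therefore do not separate an equal fall from one that differs by these amounts.

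The 5 factors that fell were called in both sexes, in males alone and in females alone, in each of the 2 zQ175 comparisons. The zQ175 effect was compared between males and females over both Msh3 genotypes, and 0% of all genes were called, with 847 at an unadjusted p under 0.05. Averaged over the 2 Msh3 genotypes, the difference was 0.14 on the log2 scale for Foxp1 (SE 0.0830, edgeR adjusted p = 0.912) and 0.10 for Rarb (SE 0.115, edgeR adjusted p = 0.947). For Foxp1 the differences in mean log2 CPM were -0.31 in males and -0.55 in females between zQ175 and wild-type mice, and -0.28 and -0.34 on the Msh3-/- background. For Rarb they were -0.46 in males and -0.84 in females between zQ175 and wild-type mice, and -0.61 and -0.44 on the Msh3-/- background, so the order of the sexes was opposite in the 2 comparisons.

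With the summed cortical markers in the model, the same 5 factors were called in both comparisons. The log2 fold changes were then -0.80 for Rxrg, -0.57 for Rarb, -0.45 for Bcl11b, -0.40 for Foxp1 and -0.36 for Meis2 between zQ175 and wild-type mice. On the Msh3-/- background they were -0.76, -0.45, -0.33, -0.27 and -0.28 in that order. No cortical marker was called in either comparison by edgeR or DESeq2, although their median log2 fold changes were 0.54 and 0.61, and in females alone 4 of the 8 were called between zQ175 and wild-type mice.

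Levels per gene length set the factors apart in wild-type mice. Meis2 had the highest mean, 343 TPM ± 12.95 (SD, n = 8), followed by Foxp1 with 226 ± 22.1. Rxrg with 175 ± 13.6 and Bcl11b with 168 ± 15.7 came next and overlapped between mice. Below them stood Rarb with 92.4 ± 9.59, Six3 with 67.4 ± 6.47, Foxp2 with 29.3 ± 1.98, Zfhx3 with 6.35 ± 0.884 and Ikzf1 with 4.07 ± 0.644 TPM. Apart from Rxrg and Bcl11b, no neighbours in this order overlapped. The called factors were thus the 5 with the highest levels. Foxp2 had 69.6 CPM or more in every mouse, and the lower bound of its interval, -0.12, was above the smallest called change between zQ175 and wild-type mice, -0.40 for Meis2.

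The factors were also compared with one another from mouse to mouse. After the mean of each genotype was subtracted, the Pearson r of the 36 pairs over the 32 mice had a median of 0.393, from -0.126 for Ikzf1 with Six3 to 0.852 for Foxp1 with Bcl11b. Pairs with Ikzf1 or Zfhx3 were mostly low, such as 0.03 for Meis2 with Ikzf1 and -0.04 for Foxp2 with Zfhx3. Such correlations share libraries, dissection and depth, no p is given, and the median was not compared with that of other gene pairs. The genes whose level followed each factor most closely among all genes tested were Kcnab1 (r = 0.890) and Pde10a (0.853) for Foxp1, Smpd3 (0.872) and Cyld (0.852) for Bcl11b, and Gng7 (0.891) and Arpp21 (0.889) for Meis2. For Rarb they were Foxo1 (0.858) and Drd1 (0.846), the dopamine D1 receptor, and for Rxrg they were Rgs8 (0.872) and Actn2 (0.871). Foxp2 was followed most closely by Ddx5 (0.779) and by Rarb (0.764), Six3 by Isl1 (0.832) and Gad2 (0.790), Zfhx3 by Kmt2d (0.786) and Ino80d (0.765), and Ikzf1 by Ptpn12 (0.700) and A830092H15Rik (0.658).

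Close relatives of the factors did not fall as a group. Of 20 paralogues, 16 were tested, and between zQ175 and wild-type mice 3 rose and 1 fell. Across all genes tested, 11.6% were called in this comparison and 6.89% were called lower. Foxp4, the third FOXP protein of the brain, rose by 0.41 on the log2 scale (SE 0.0568, edgeR adjusted p = 7.05e-07), from 25.1 CPM ± 2.32 to 33.3 ± 2.13. Rara, the alpha retinoic acid receptor, was higher by 0.32 (edgeR adjusted p = 0.0179), at 5.41 and 6.77 CPM. Ikzf2, or Helios, was higher by 0.32 (edgeR adjusted p = 0.0253) and Ikzf3, or Aiolos, fell by 0.65 on the log2 scale (edgeR adjusted p = 0.00265), both at under 5 CPM. Other paralogues had an edgeR adjusted p under 0.05 but stayed under the 1.2-fold limit, and are named after their values were seen. Rarg (log2 fold change -0.25) and Rxrb (-0.16) were lower, and Bcl11a (0.16) and Ikzf5 (0.14) higher.

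In mice without Msh3, Ikzf2 (log2 fold change 0.52, edgeR adjusted p = 0.000493) and Ikzf3 (-0.45, edgeR adjusted p = 0.0465) were called in the same directions. Meis1 rose there by 0.28 (edgeR adjusted p = 0.00659), whereas its log2 fold change against wild-type mice was 0.10 (edgeR adjusted p = 0.375). Foxp4 had a log2 fold change of 0.24 (edgeR adjusted p = 0.00136), under the 1.2-fold limit, and Rara of 0.20 (edgeR adjusted p = 0.174). Also under the limit, with an edgeR adjusted p under 0.05, Bcl11a (0.21) was higher and Rxrb (-0.20) and Rxra (-0.14) lower. The median over the 16 paralogues was 0.05 and 0.12 in the 2 comparisons.

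Of the 16 partners and cofactors, which include PBX proteins that bind with MEIS, EYA and DACH proteins that work with Six3 and its relatives, and the corepressors and coactivators of nuclear receptors, 1 rose and 1 fell in zQ175 mice. Across all genes tested, 11.6% were called in this comparison and 10.6% on the Msh3-/- background. Eya4 rose by 0.47 on the log2 scale (edgeR adjusted p = 0.0210) at 2.80 and 3.90 CPM. Dach1, a repressor, was well expressed and fell by 0.43 on the log2 scale (edgeR adjusted p = 1.75e-05), from 105 CPM ± 13.4 to 77.7 ± 6.55. On the Msh3-/- background 3 rose and Dach1 again fell, by 0.33 on the log2 scale (edgeR adjusted p = 0.000679). The 3 were Eya4 with 0.46, Eya1 with 0.38 and Dach2 with 0.85, the last pair named after their values were seen and Dach2 at under 1 CPM.

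Of 14 genes that supply and clear retinoic acid, 10 were tested, and 3 fell, none rose and 7 were not called in zQ175 mice. Of all genes tested, 6.89% were called lower in this comparison and 5.96% on the Msh3-/- background. Dhrs3, which reduces retinaldehyde back to retinol, fell by 0.55 on the log2 scale (SE 0.0745, edgeR adjusted p = 4.19e-07), from 15.0 CPM ± 1.73 to 10.3 ± 0.806. Rbp4, a retinol carrier, fell by 0.54 on the log2 scale (edgeR adjusted p = 2.80e-06), from 11.3 CPM ± 0.916 to 7.76 ± 0.911. Aldh1a1, which makes retinoic acid, fell by 0.35 on the log2 scale (edgeR adjusted p = 0.0145).

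The same 3 fell on the Msh3-/- background, by 0.57, 0.51 and 0.41 on the log2 scale in that order, and Crabp2, which carries retinoic acid to its receptor, fell by 0.47 (edgeR adjusted p = 0.00819) at 1.87 CPM without and 1.35 with the zQ175 allele. Against wild-type mice Crabp2 had a log2 fold change of -0.25 (edgeR adjusted p = 0.193). The median over the 10 genes was -0.18 and -0.29.

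Other factors of the striatal lineage did not follow the 5. Of 15 genes, among them Dlx1, Dlx2, Isl1, Ebf1 and Sp9, 13 were tested and 1 fell, Dlx6, a homeobox gene of GABAergic neurons, by 0.31 on the log2 scale in zQ175 mice (edgeR adjusted p = 0.000351) and by 0.30 on the Msh3-/- background (edgeR adjusted p = 0.000665). Of all genes tested, 6.89% and 5.96% were called lower in these comparisons. The median log2 fold change of the 13 lineage factors was 0.06 in both. The signalling genes of spiny neurons, by contrast, fell in 17 of 18 cases in both comparisons, with medians of -0.80 and -0.76. The largest of these changes by significance were those of Penk, the enkephalin precursor (log2 fold change -1.32), Scn4b, a sodium channel subunit (-1.53), Adora2a, the adenosine receptor of the indirect pathway (-1.03), and Arpp21, a cAMP-regulated phosphoprotein (-1.01), in zQ175 against wild-type mice. The gene of the 18 that was not called was Tac1. Its log2 fold changes were 0.06 (edgeR adjusted p = 0.422) and, on the Msh3-/- background, -0.01 (edgeR adjusted p = 0.898). Of the 9 factors, Rxrg alone had a fall beyond the median of these 18 genes.

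**Figure D4:**
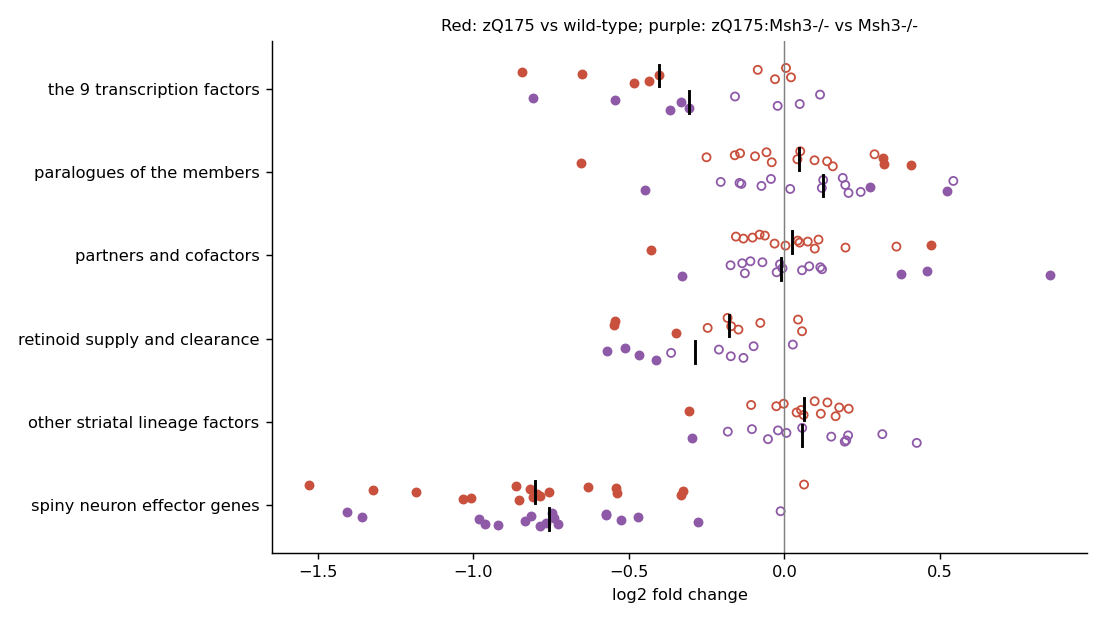
Log2 fold change (x axis) of the tested genes of 6 lists (y axis), in red for zQ175 against wild-type and in purple for zQ175:Msh3-/- against Msh3-/- mice. Filled points passed the edgeR test and the 1.2-fold limit, and black bars mark list medians. The median of the 9 factors lies between those of the spiny neuron signalling genes, nearly all lower, and of the other lists. On the Msh3-/- background it is close to the median of the retinoid list, at -0.31 and -0.29.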

How the data were processed

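Striatal RNA of 32 mice was sequenced by the authors, who deposited whole-number counts per gene and a second table, named for FPKM, whose columns all have the same sum, as TPM values do, and which was used as TPM. The build in the submitters' processing notes was GRCm38.p6. The aligner, the counting program and its strand setting were not given in the sources used here. Genes were named by GENCODE M21.

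The count test was edgeR 4.0.16 under R 4.3.3 (TMM, filter on low counts by genotype, robust quasi-likelihood, 1 model of the 4 genotypes). For single values, log2 CPM was compared between mice by an exact permutation test, two-sided. The factors and gene lists were chosen with earlier results of these data known. Beside the factors, genes were named by rule: up to 4 called genes of each list with the smallest adjusted p, the 2 genes nearest to each factor, Msh3 and Htt.

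Alternatives were DESeq2 1.42.0, RLE size factors, no filter or at least 10 counts in every mouse, sex, the replicate number as a block or the cortical marker sum in the model, only the groups compared, limma 3.58.1 with log2(TPM + 0.1), also without a filter, or log2(TPM + 1), each sex alone, no fold limit and each mouse left out. The cortical term and the test between sexes were chosen after seeing the data. The constant added to TPM before taking logs shrinks the fold changes of low genes. The edgeR step was also tested on simulated counts with the spread of these data. Of 200 genes changed 1.4-fold, 85.5% were recovered between zQ175 and wild-type mice, with 9 false calls. These calls used the adjusted p alone, without the fold limit. Summaries were made in Python 3.11.15 (pandas 2.3.3, matplotlib 3.10.9). Promoter sequences are from RefSeq. One stretch of sequence is not reported here.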

Additional observations from a re-analysis of the deposited data

Results flagged for a closer look

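The 9 factors and the 2 ratios were examined in each of the 4 genotypes for a mouse whose gap to the nearest other mouse took an unusual share of the range of its group, above Dixon's 95% critical value. Of 44 sets 1 was picked out, where chance gives about 5%. In Msh3-/- male 1 the ratio of Foxp2 to Foxp1 was 0.245, the next highest in its group was 0.202, and the gap took 0.762 of the range. No single factor had such a mouse in any genotype.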

How the results depend on the processing

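The 5 factors called between zQ175 and wild-type mice were called under all 14 other settings and with any of the 32 mice left out. On the Msh3-/- background the count was 5 in every case except the 3 limma fits of TPM values, which gave 4, without Foxp1. No factor was called for loss of Msh3 or for the interaction under any setting. Whether the replicate numbers pair the mice was not settled. Same-numbered mice, which also share sex, had a median r between 0.0307 and 0.0835, against -0.0435 to -0.0027 for mice of other numbers. Such weak correlations cannot decide the question. With the replicate number as a block, 5 factors were called in both comparisons and 1931 and 1694 genes in all. Without the fold limit, 4398 genes were called between zQ175 and wild-type mice and 4002 on the Msh3-/- background, against 1925 and 1768 with it. In males alone, 1180 genes were called between zQ175 and wild-type mice, 1583 on the Msh3-/- background and 3 between Msh3-/- and wild-type mice, and in females alone 1819, 1067 and 1. By limma on log2(TPM + 0.1), 59.9% and 68.5% of called genes were higher, against 40.6% and 44.0% by counts. The median log2 change of all genes tested was 0.068 and 0.081 on this TPM scale, against 0.012 and 0.014 by counts. The cause was not tested.

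From the TPM table, the log2 difference of the Foxp2 to Foxp1 ratio between zQ175:Msh3-/- and zQ175 mice was 0.016 against -0.0011 from counts, and that of Rxrg to Rarb between zQ175 and wild-type mice was -0.27, which passed the test. When single mice were left out, the first of these lay between -0.026 and 0.038, the second between -0.27 and -0.16, and the Foxp2 to Foxp1 difference between Msh3-/- and wild-type mice between 0.077 and 0.138. In the smaller lists, where 1 gene moves a count by over 1.5 times, counts of called genes moved with the setting, between 2 and 8 of the paralogues and between 1 and 4 of the partners in zQ175 against wild-type mice, whereas 17 of the 18 spiny neuron genes were called under every setting there and 15 to 17 on the Msh3-/- background.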

Other observations

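Markers of other striatal cells moved less than those of spiny neurons. Of all genes tested, 6.89% were called lower in zQ175 against wild-type mice and 5.96% on the Msh3-/- background. Of 8 interneuron markers, 2 fell in zQ175 against wild-type mice, both of cholinergic neurons: Chat, which makes acetylcholine, fell by 0.27 on the log2 scale (edgeR adjusted p = 0.00264) and Slc5a7, which takes up choline, fell by 0.31 (edgeR adjusted p = 8.98e-05). On the Msh3-/- background both were called again, with log2 fold changes of -0.32 and -0.36, together with Th (-0.43, edgeR adjusted p = 0.00468), named after its value was seen. Of 5 endothelial markers, Flt1 (-0.33), Tek (-0.38) and Kdr (-0.37) fell in zQ175 against wild-type mice, with edgeR adjusted p-values of 0.000888, 7.74e-05 and 0.000848, and none was called on the Msh3-/- background. All 5 had log2 fold changes below 0 there, with a median of -0.19. Tek (-0.25, edgeR adjusted p = 0.00829) missed only the 1.2-fold limit. Of 6 oligodendrocyte markers, Mobp alone was called, in zQ175 against wild-type mice (-0.33, edgeR adjusted p = 0.00913). On the Msh3-/- background Mobp had a log2 fold change of -0.25 (edgeR adjusted p = 0.0468), under the 1.2-fold limit. None of 6 astrocyte, 10 microglial and 4 ependymal markers was called in either comparison by edgeR or DESeq2. Without the fold limit, edgeR called 3 of the astrocyte and 3 of the microglial markers in zQ175 against wild-type mice, and 2 and 7 of them on the Msh3-/- background.

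Htt itself fell by 0.32 on the log2 scale in zQ175 against wild-type mice (edgeR adjusted p = 4.76e-08) and by 0.17 on the Msh3-/- background (edgeR adjusted p = 0.00160, under the 1.2-fold limit). The interaction for Htt was 0.15, with an unadjusted edgeR p of 0.00814 and an adjusted p of 0.999.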
